A study of Mus musculus with 12 samples.

Results

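Chemokine ligands are small secreted or membrane-tethered proteins that direct the migration of leukocytes. The 41 genes described here are all symbols present in both count tables that begin with Ccl or Cxcl followed by a number and at most 1 letter, together with Pf4, Ppbp, Xcl1 and Cx3cl1. They are 41 of the 32190 symbols in each table, and the rule uses symbols only, not measured values, although it was written with earlier results of these data known. RNA-seq counts were available for 12 mouse libraries in 6 groups of 2. The late and early tumoral dendritic cells (DCs) were sorted at day 14 and day 7 from tumors of MC38, a colon carcinoma line, grown in mice whose Zbtb46 gene, active in conventional DCs, drives TdTomato. Their labels give the genotype WT and call the cells immune cells. The other 4 groups were bone marrow-derived DCs (BMDCs), cells grown from marrow progenitors, labelled with a time of 9 days. They were KO-labelled (from Pde5 knockout mice) with LPS, WT with LPS, KO-labelled unstimulated and WT unstimulated. LPS, a bacterial ligand of Toll-like receptor 4, was given at 200 ng/ml for 12 h. Whether the pair of libraries in a group stems from different animals or cultures is not stated in the labels, so every p-value here reflects the spread among sequenced libraries and may be technical only.

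Chemokines bind receptors of the G protein-coupled family, and most receptors take several ligands, so the genes were grouped by their main receptor. CXCR2 ligands draw neutrophils, CXCR3 ligands draw activated T and NK cells, CCR2 ligands draw monocytes and CCR4 ligands draw regulatory and helper T cells. DCs answer chemokines too: mature DCs carry CCR7 and follow its ligands to lymph nodes. Many chemokine genes are switched on by NF-κB or by interferon signalling after Toll-like receptor stimulation.

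Totals were 14153700 to 19293261 counts in the tumoral and 16122941 to 19684338 counts in the BMDC libraries, and the 41 genes held 0.334 to 0.72% of them. Levels are given as counts per 1000000 counts of a library (CPM), scaled within each table by the TMM method. The tables were scaled separately, so a difference between tumoral DCs and BMDCs is a description without a test. Pde5a, the gene named by the knockout label, had 22 and 43 counts in KO-labelled LPS, 52 and 20 in WT LPS, 47 and 61 in KO-labelled unstimulated and 55 and 37 in WT unstimulated libraries, which did not pass the test of label without stimulation (log2 fold change 0.12, adjusted p = 0.887, edgeR) or with LPS (-0.11, adjusted p = 0.956). The labels do not say which part of the gene is deleted, and the libraries are named by their label throughout. Conventional DC markers summed to 5198 to 8055 CPM in every library, with none of the 12 genes of that list at 0 throughout either table. Members of that list differed between the tables in both directions. H2-Ab1 averaged 4690.5 and 4104 CPM in early and late tumoral groups, and 1160 to 3247 CPM in BMDC groups. Flt3 averaged 99.3 and 92.6 CPM in early and late tumoral groups, and 400 to 478 CPM in BMDC groups. The similar sums thus do not show an equal DC content. Monocyte and macrophage markers summed to 7966 to 17464 CPM in the tumoral and 782 to 2373 CPM in the BMDC libraries. Endothelial markers (50.8 to 170.4 CPM) and epithelial and tumor cell markers (14.4 to 73.7 CPM) were low in all 12. In bulk RNA, fewer cells of a type and less RNA per cell cannot be told apart.

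Detection was set at 10 or more counts in 2 or more libraries of a table. By this measure 30 chemokine genes were detected in the tumoral libraries and 24 in the BMDCs, and all of these also had enough counts for a test. Both tables detected 23 of them. The tumoral table alone detected 7, namely the CCR8 ligands Ccl1 and Ccl8, the eotaxin Ccl11, the CCR2 ligand Ccl12, the CXCR4 ligand Cxcl12, the B cell attractant Cxcl13 and the CXCR2 ligand Cxcl5. For Cxcl5 the levels overlapped, with 0.379 to 1.80 CPM in tumoral and 0.0542 to 1.41 CPM in BMDC libraries. Ccl27a, a CCR10 ligand, was detected in the BMDCs alone. The 10 detected in neither table included Ccl20, the ligand of CCR6, Ccl26, Ccl28, Cxcl15 and Cxcl17, none of which exceeded 3 counts in a library. The other 5, which are the CCR7 ligands Ccl19, Ccl21a, Ccl21b and Ccl21d, and Ccl27b, had 0 counts in all 12 libraries. A count of 0 allowed up to 0.14 to 0.227 CPM, depending on the library (3 counts, counting error only). Transcripts of Ccl19, Ccl21a, Ccl21b, Ccl27a and Ccl27b share between 45 and 100% of their 50-base stretches with other annotated genes. Ccl21d had no transcript in the annotation searched, so its sharing is unknown. How the authors counted reads that map to several places is not given in the sources used here, so these counts are uncertain.

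Upstream sequences are shown for 5 genes of chromosome 5, chosen after their values were seen. Cxcl1, Cxcl2 and Cxcl3, neighbouring CXCR2 ligand genes, were low together in 1 early tumoral library. That library was the lowest for 19 of 30 tested chemokine genes, and none of these CXCR2 ligand genes was called in any comparison (edgeR). Cxcl9 and Cxcl10, neighbouring CXCR3 ligand genes, had the largest log2 fold changes among the chemokine genes called between KO-labelled and WT unstimulated BMDCs. Each line gives the 250 bases before the RefSeq gene start (GRCm38.p6, the assembly of mm10), 5′ to 3′ on the strand of the gene, and capitals mark matches to the motifs named after them.
Cxcl1 (chr5:90890995-90891244, plus strand): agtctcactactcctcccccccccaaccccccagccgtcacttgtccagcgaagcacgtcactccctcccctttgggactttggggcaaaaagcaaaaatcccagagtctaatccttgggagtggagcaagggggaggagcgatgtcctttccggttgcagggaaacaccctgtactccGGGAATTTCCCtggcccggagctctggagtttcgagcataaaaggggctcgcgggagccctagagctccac
Cxcl2 (chr5:90903649-90903898, plus strand): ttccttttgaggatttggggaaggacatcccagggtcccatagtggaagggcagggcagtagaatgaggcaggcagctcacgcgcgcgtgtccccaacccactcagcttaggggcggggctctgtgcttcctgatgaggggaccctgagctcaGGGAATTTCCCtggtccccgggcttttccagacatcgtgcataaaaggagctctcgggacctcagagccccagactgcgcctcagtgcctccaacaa
Cxcl3 (chr5:90785851-90786100, plus strand): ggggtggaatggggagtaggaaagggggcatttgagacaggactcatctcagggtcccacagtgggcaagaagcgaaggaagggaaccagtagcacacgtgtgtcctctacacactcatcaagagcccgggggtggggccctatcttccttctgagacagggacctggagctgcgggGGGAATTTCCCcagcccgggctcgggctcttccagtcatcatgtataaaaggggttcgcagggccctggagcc
Cxcl10 (chr5:92348890-92349139, minus strand): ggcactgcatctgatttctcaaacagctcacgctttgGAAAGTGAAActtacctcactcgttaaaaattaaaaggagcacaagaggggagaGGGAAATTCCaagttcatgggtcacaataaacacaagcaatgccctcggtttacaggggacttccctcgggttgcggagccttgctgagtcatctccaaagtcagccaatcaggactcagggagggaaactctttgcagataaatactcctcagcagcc
Cxcl9 (chr5:92328080-92328329, minus strand): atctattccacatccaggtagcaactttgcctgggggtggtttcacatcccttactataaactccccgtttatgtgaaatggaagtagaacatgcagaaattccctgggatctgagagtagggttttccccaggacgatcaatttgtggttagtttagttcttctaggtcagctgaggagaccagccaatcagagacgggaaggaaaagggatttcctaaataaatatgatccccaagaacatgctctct

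Windows of 300 bases (250 before and 50 after the start) were searched on both strands for 3 letter patterns: GGGA and TTCC with any 2 bases between them, known from NF-κB sites, GAAA and GAAA with any 2 bases between, known from interferon-stimulated response elements, and TTC and GAA with any 3 bases between, known from STAT sites. RefSeq windows matched 30 of the 41 genes, with 36 windows in all, since Ccl25, Ccl27a and Ccl27b have several. Ccl2, Ccl4, Ccl5, Ccl7, Ccl11, Ccl24, Ccl26, Cxcl5, Cxcl11, Cxcl16 and Cxcl17 had no entry. The NF-κB pattern lay in 5 of the 36 windows (13.9%), those of Ccl1, Cxcl1, Cxcl2, Cxcl3 and Cxcl10, against 1.47% of all 32851 windows. In Cxcl1, Cxcl2 and Cxcl3 the match was GGGAATTTCC, which overlaps a second match shifted by 1 base on the other strand. It began 71 bases before the start of Cxcl1, 97 before that of Cxcl2 and 73 before that of Cxcl3. The interferon pattern lay in the windows of Ccl19, Cxcl10 and Cxcl14 (3 of the 36, or 8.33%, against 3.44% of all windows), and in Cxcl10 it began 213 bases before the start. The STAT pattern lay in those of Ccl17 and Cxcl14 (5.56%, against 8.3%). The window of Cxcl9 held none of the 3. These matches describe letters and not binding.

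Among the 6 groups, the BMDCs and the tumoral DCs had different leading chemokines. In BMDCs 4 genes led, and per kilobase of annotated exon their order was clear in each group. Ccl5, which attracts T cells, had 1521 ± 4.13 CPM per kb in KO-labelled LPS libraries, 1497 ± 46.3 in WT LPS, 1168 ± 249 in KO-labelled unstimulated and 564 ± 59.8 in WT unstimulated libraries (SD, n = 2 each). Ccl22, a CCR4 ligand, followed with 1053 ± 155, 1038 ± 163 and 886 ± 24.5 CPM per kb in the first 3 of these groups. WT unstimulated libraries alone had Ccl22 first, at 694 ± 22.2 CPM per kb. Cxcl16, a membrane-anchored CXCR6 ligand, came next in all 4 groups (186 to 421 CPM per kb) and Cx3cl1, the membrane-anchored ligand of CX3CR1, after it (40.0 to 60.8 CPM per kb). Ranges of these 4 did not overlap within a group. The next highest value in any BMDC library was that of Cxcl10 in a WT LPS library, 48.6 CPM per kb. In WT unstimulated libraries Ccl9, at 26.4 to 40.9 CPM per kb, overlapped Cx3cl1, at 38.95 to 41.06 CPM per kb, so the fourth place was not clear there.

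**Figure D1:**
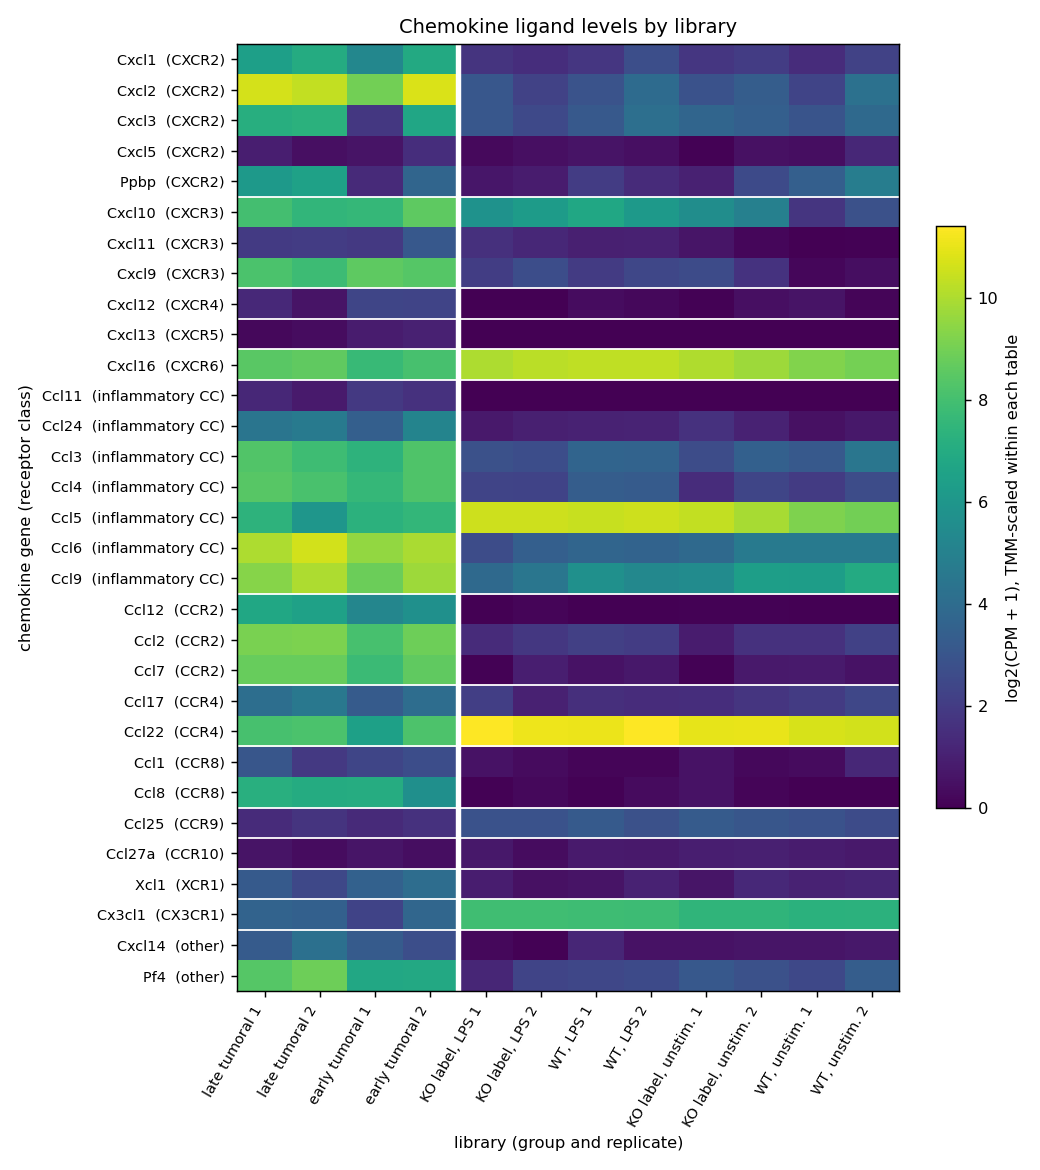
Level of each of the 31 detected chemokine genes in each library, as log2(CPM + 1) with TMM scaling within each table; rows are ordered by receptor class and the wide white vertical line separates the 4 tumoral libraries (left) from the 8 BMDC libraries. Ccl2, Ccl7, Cxcl2, Ccl6 and Ccl9 are brighter in every tumoral than in any BMDC library. Ccl5, Ccl22, Cxcl16 and Cx3cl1 are brighter in every BMDC than in any tumoral library, though Cxcl16, Ccl22 and Ccl5 are not dark in the latter.

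The tumoral DC libraries spread their chemokine RNA over many more genes. Their monocyte and macrophage markers summed to 7966 to 17464 CPM. The part of such cells in the levels and class sums below was not tested. Per kilobase, the late libraries were led by Ccl6, a CCR1 ligand of mice, at 719 ± 213 CPM per kb, and Cxcl2, which draws neutrophils, at 701 ± 105 CPM per kb (SD, n = 2 each). Pf4, the platelet factor that macrophages also make, followed at 559 ± 132 CPM per kb, and the monocyte attractants Ccl7 (540 to 543 CPM per kb) and Ccl2 (484 to 505 CPM per kb) came next. In early libraries Cxcl2 came first at 540 ± 425 CPM per kb and Ccl6 second at 488 ± 97.3. The ranges of Ccl6, Cxcl2 and Pf4 overlapped in the late libraries, and those of Ccl7 and Ccl2 lay within that of Pf4 (465 to 652 CPM per kb). In the early ones Cxcl2 (239 to 840 CPM per kb) overlapped Ccl6 and lower genes, among them Ccl7, Ccl4 and Ccl2. The order of these genes is thus not beyond their spread.

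By receptor class, the tumoral and BMDC tables differed by large factors in several places. CCR2 ligands (Ccl2, Ccl7 and Ccl12) summed to 1093 and 1101 CPM in late and 519 and 913 CPM in early tumoral libraries, and to at most 3.99 CPM in any BMDC library. The CXCR2 ligands (Cxcl1, Cxcl2, Cxcl3, Cxcl5, Cxcl15 and Ppbp) summed to 1902 and 1667 CPM in late and 537 and 1979 CPM in early libraries, against 11.5 to 64.8 CPM in BMDCs. CXCR3 ligands (Cxcl9, Cxcl10 and Cxcl11) summed to 549.7 and 408 CPM in late and 573 and 724 CPM in early libraries. In BMDCs that class separated the WT unstimulated libraries from the rest, with 60.8 and 82.3 CPM in KO-labelled LPS, 113 and 77.0 CPM in WT LPS, 52.9 and 32.2 CPM in KO-labelled unstimulated and 2.54 and 6.41 CPM in WT unstimulated libraries. The CCR4 class ran the other way between tables. Ccl17 and Ccl22 together had 283 and 314 CPM in late and 97.6 and 316 CPM in early tumoral libraries, and 1580 to 2705 CPM in BMDCs. Ccl22 made up nearly all of it there, since Ccl17, a CCR4 ligand that DCs are also known for, stayed between 1.06 and 4.44 CPM in the 8 BMDC libraries.

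The inflammatory CC ligands (Ccl3, Ccl4, Ccl5, Ccl6, Ccl9, Ccl11, Ccl24 and Ccl26) held the largest class sum in every tumoral library, 2502 and 3196 CPM in late and 1729.7 and 2682 CPM in early libraries, led by Ccl6 and Ccl9. In BMDCs the class held 677 to 1540 CPM, of which Ccl5 was the greater part in every library. Ccl8 carried the CCR8 class with 50.1 to 143.6 CPM in tumoral libraries, and no BMDC library exceeded 1.41 CPM for Ccl1 and Ccl8 together.

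Minor classes stayed low. Xcl1, which NK and CD8 T cells make and which draws XCR1-bearing DCs, had 8.30 and 4.47 CPM in late and 10.5 and 15.7 CPM in early tumoral libraries, where T cell markers summed to 114 and 67.9 CPM (late) and 561 and 383 CPM (early). The part of those cells in the Xcl1 level was not tested. Ccl25, a CCR9 ligand of thymus and gut, had 5.06 to 8.78 CPM in BMDCs and 1.54 to 2.27 CPM in tumoral libraries. Ccl27a, a CCR10 ligand of skin, had 0.313 to 0.988 CPM in BMDCs and 0.303 to 0.56 CPM in tumoral libraries, which overlap. Annotated exons of Ccl25 overlap those of Elavl1 (2.06% of its 50-base stretches shared) and those of Ccl27a overlap Il11ra1. Exons of Xcl1 overlap those of Gm20743 (10.8% shared). Reads of these pairs may be mixed, and their part in the Ccl25, Ccl27a and Xcl1 levels was not tested. Cxcl12 and Cxcl13, the ligands of CXCR4 and CXCR5, were at 4.25 CPM or less throughout.

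LPS changed a chemokine set of mixed class in WT BMDCs. Of 24 tested genes 8 rose and 3 fell (edgeR quasi-likelihood test, Benjamini-Hochberg adjusted p under 0.05 over all 13072 genes tested). This is 11 of 24 in a comparison that called 37.6% of all genes, 20% as higher and 17.6% as lower. The median log2 fold change was 0.296 for the chemokine genes and -0.0242 for all genes. CPM of the groups did not overlap for 14 of the 24, where 71% of all genes did not overlap.

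All 3 CXCR3 ligands, which interferons are known to induce, rose with LPS. Cxcl10 (chr5:92346638-92348889) had 109 and 71.5 CPM in WT LPS libraries, against 2.38 and 6.02 CPM in WT unstimulated libraries (log2 fold change 4.43, SE 0.466, adjusted p = 0.000891). Its 3′ neighbour Cxcl9 (chr5:92321331-92328079) had 2.97 and 4.45 CPM with LPS and 0.166 and 0.337 CPM without (log2 fold change 3.85, SE 0.642, adjusted p = 0.00268). Cxcl11 was scarce. Its counts were 17 and 17 in WT LPS libraries and 0 and 1 in WT unstimulated libraries (adjusted p = 0.00581), a ratio of 36.7 with a 95% counting interval of 6.16 to 1490. Annotated exons of Cxcl11 overlap those of Gm2673, which share 40.4% of its 50-base stretches, and those of Cxcl10 overlap Art3, so reads of these pairs may be mixed. The strand setting is not given in the sources used here.

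Of the genes already abundant without LPS, 4 rose further. Ccl5 (chr11:83525778-83530518) had 1405 and 1468 CPM in WT LPS libraries and 582 and 501 CPM in WT unstimulated libraries (log2 fold change 1.41, SE 0.159, adjusted p = 0.00053). Cxcl16 (chr11:70454389-70459984) had 1283 and 1260.2 CPM with LPS, against 608 and 517 CPM without (log2 fold change 1.18, SE 0.148, adjusted p = 0.000803). Both lay more than 1 log2 unit above the unstimulated level, with tight replicates. Cx3cl1 had 232 and 225 CPM with LPS and 153 and 161 CPM without (log2 fold change 0.54, SE 0.0857, adjusted p = 0.00209). Ccl22 had 2145 and 2682 CPM with LPS and 1649 and 1576 CPM without (log2 fold change 0.58, SE 0.154, adjusted p = 0.0182). Both changes were below 1 log2 unit, and the groups did not overlap. Exons of Cxcl16 overlap those of Zmynd15, which hold 16.9% of its 50-base stretches.

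Among the inflammatory CC ligands the direction was split. Besides Ccl5, Ccl4, which draws monocytes and T cells, rose, with 9.32 and 8.72 CPM in WT LPS libraries and 2.93 and 5.23 CPM in WT unstimulated libraries (log2 fold change 1.14, SE 0.393, adjusted p = 0.0491). The CCR1 ligands Ccl6 and Ccl9 fell. Ccl9 had 52.5 and 38.7 CPM with LPS, against 80.3 and 125 CPM without (log2 fold change -1.17, SE 0.364, adjusted p = 0.0435). Ccl6 had 12.0 and 11.5 CPM with LPS and 23.9 and 23.8 CPM without (log2 fold change -1.02, SE 0.317, adjusted p = 0.0371). Ppbp, which encodes the platelet precursor of a CXCR2 ligand, fell as well, with 3.09 and 1.65 CPM in WT LPS libraries and 9.89 and 27.8 CPM in WT unstimulated libraries (log2 fold change -2.99, SE 0.761, adjusted p = 0.0218). Platelet and megakaryocyte markers summed to 47.7 and 36.9 CPM with LPS and 135 and 104 CPM without. Much of this was Itgb3, which averaged 18.4 CPM with LPS and 64.1 CPM without. Gp1ba, Gp5, Gp6 and Gp9 averaged at most 2.32 CPM in either group. Of that list 4 of 8 tested genes fell, in a comparison that called 17.6% of all genes as lower. Gp1bb was at 0 in all 12 libraries, where other genes of the list had counts. Neutrophil markers summed to 86.2 and 90.6 CPM with LPS and 154 and 229.8 CPM without. Here 6 of 8 tested fell, against the same 17.6% of all genes. Monocyte and macrophage markers summed to 2144 and 1713 CPM with LPS and 1840.3 and 1587 CPM without. Among 12 tested, 5 were higher and 2 lower, against 20% and 17.6% of all genes. The part of such cells in the Ppbp, Ccl6 and Ccl9 values was not tested.

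The 11 calls were unequally firm. Those of Ccl5, Cxcl16, Cxcl10, Cxcl9, Cxcl11 and Cx3cl1 held in all 16 alternative settings. The count of calls was 7 without WT unstimulated replicate 2, 7 without WT LPS replicate 1 and 6 without WT LPS replicate 2, and the calls lost there were among Ppbp, Ccl9, Ccl6, Ccl4 and Ccl22. The 13 tested genes that were not called had log2 fold changes from -1.003 (Ccl17) to 1.06 (Ccl24).

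**Figure D2:**
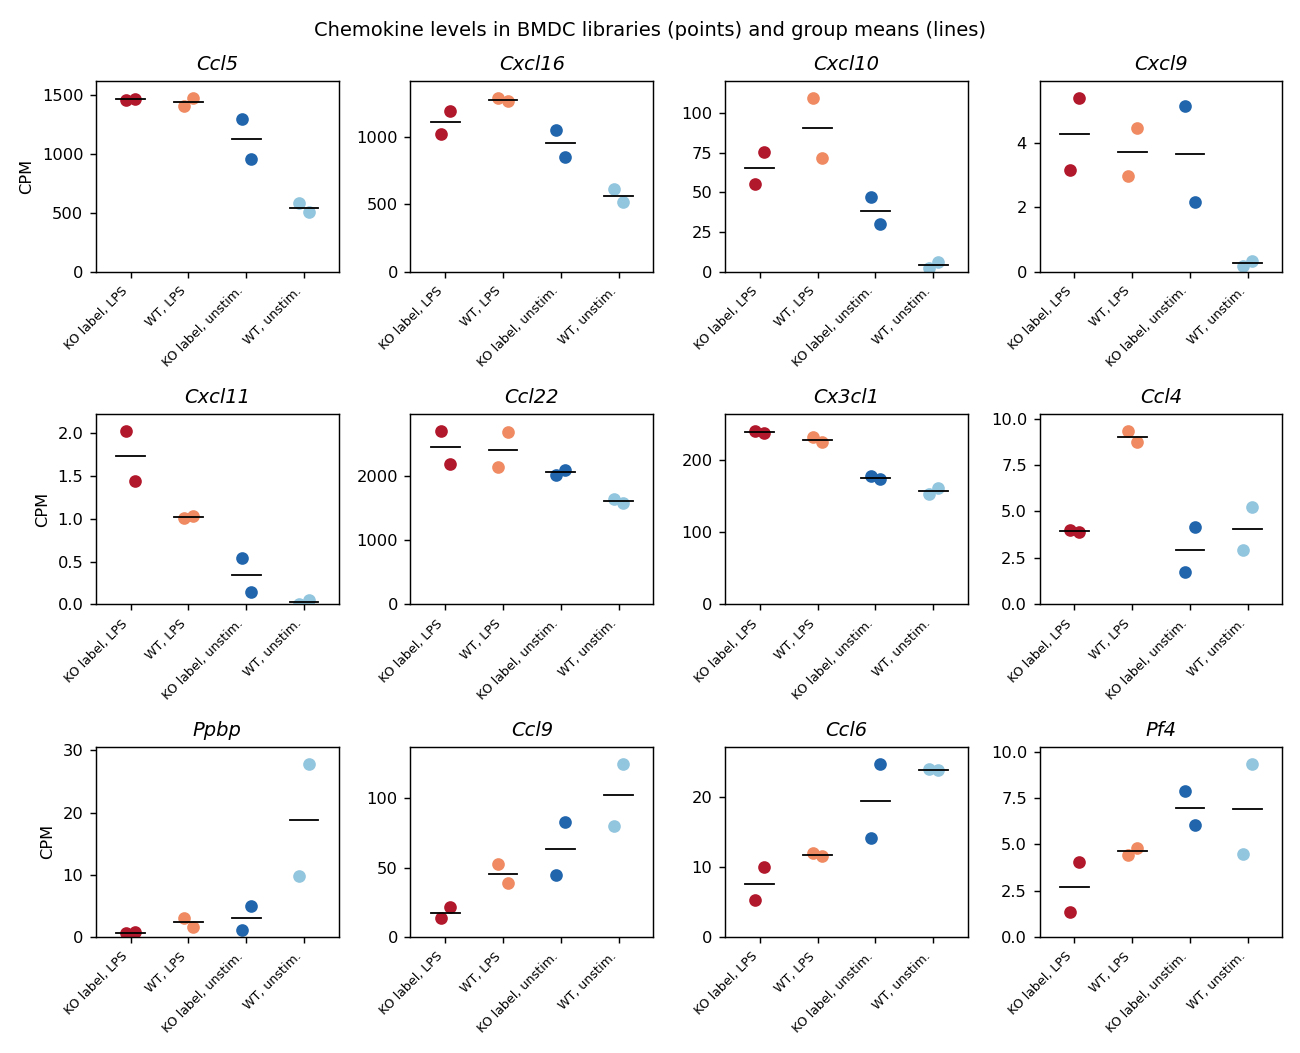
CPM of 12 chemokine genes in the 8 BMDC libraries (points) with the mean of each group of 2 (lines), for KO-labelled and WT cells with LPS and unstimulated; the vertical axes start at 0 and differ between panels. Ccl5, Cxcl16, Cxcl10 and Cxcl9 are lowest in both WT unstimulated libraries, while Ppbp is highest there.

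In KO-labelled BMDCs the same dose and time of LPS gave 0 called chemokine genes, in a comparison that called 0% of all genes (edgeR). At an unadjusted p under 0.05 there were 7 of 24 chemokine genes, against 21.4% of all genes. DESeq2 called 3 (Cx3cl1, Ccl9 and Ccl6) and limma-voom 0. Without KO-labelled unstimulated replicate 1, 2 were called (Ccl9 and Ccl6). The median log2 fold change was -0.38 for the chemokine genes, against -0.0155 for all genes, and 15 of 24 did not overlap between groups, against 55.8% of all genes.

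Cx3cl1 had 240.2 and 238 CPM in KO-labelled LPS libraries and 177 and 174 CPM in KO-labelled unstimulated libraries (log2 fold change 0.45, SE 0.0855, adjusted p = 0.0703). Ccl9 had 13.9 and 21.4 CPM with LPS, against 44.8 and 82.6 CPM without (log2 fold change -1.85, SE 0.383, adjusted p = 0.0884). Ccl6 had 5.29 and 9.94 CPM with LPS and 14.1 and 24.7 CPM without (log2 fold change -1.35, SE 0.328, adjusted p = 0.0978). In each of these 3 the groups did not overlap, and none passed. Monocyte and macrophage markers summed to 782 and 1661 CPM in KO-labelled LPS and 2373 and 1944 CPM in KO-labelled unstimulated libraries, with a median log2 fold change of -0.784 over 12 genes, and their part in the Ccl6 and Ccl9 values was not tested. Ccl5 had 1457 and 1463 CPM with LPS and 1291 and 952 CPM without (log2 fold change 0.38, SE 0.156, adjusted p = 0.207). Cxcl16 had 1018 and 1191 CPM with LPS and 1051 and 851 CPM without (log2 fold change 0.22, SE 0.146, adjusted p = 0.423), and its groups overlapped.

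The difference between the LPS responses was tested itself, as the response in KO-labelled minus that in WT BMDCs. It was negative and past the threshold for 4 of 24 chemokine genes and positive for 0, in a comparison that called 4.48% of all genes, 3.91% as negative and 0.566% as positive. The median was -0.712 log2 units for the chemokine genes and -0.00727 for all genes. The 4 were the CXCR3 ligands Cxcl10 (log2 difference -3.66, SE 0.593, adjusted p = 0.0241) and Cxcl9 (-3.62, SE 0.806, adjusted p = 0.0431), Ccl5 (-1.03, SE 0.221, adjusted p = 0.0378) and Cxcl16 (-0.96, SE 0.207, adjusted p = 0.0383). Cxcl10 had a log2 fold change with LPS of 0.77 (SE 0.382) in KO-labelled and 4.43 (SE 0.466) in WT BMDCs, and Cxcl9 had 0.22 (SE 0.459) in KO-labelled and 3.85 (SE 0.642) in WT BMDCs. The log2 difference stayed negative in 15 alternative settings for each of the 4. It ranged from -4.48 to -3.15 for Cxcl10, -4.20 to -2.87 for Cxcl9, -1.23 to -0.78 for Ccl5 and -1.11 to -0.79 for Cxcl16. Cxcl10 was not called without the count filter or with a replicate block. Cxcl9 was not called with limma-voom or a replicate block. The number of called chemokine genes also changed on leaving out a library. The count was 0 without KO-labelled unstimulated replicate 1, without WT LPS replicate 1 or without KO-labelled LPS replicate 1. It was 1 (Cxcl10) without WT unstimulated replicate 2, without WT LPS replicate 2 or without KO-labelled LPS replicate 2.

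**Figure D3:**
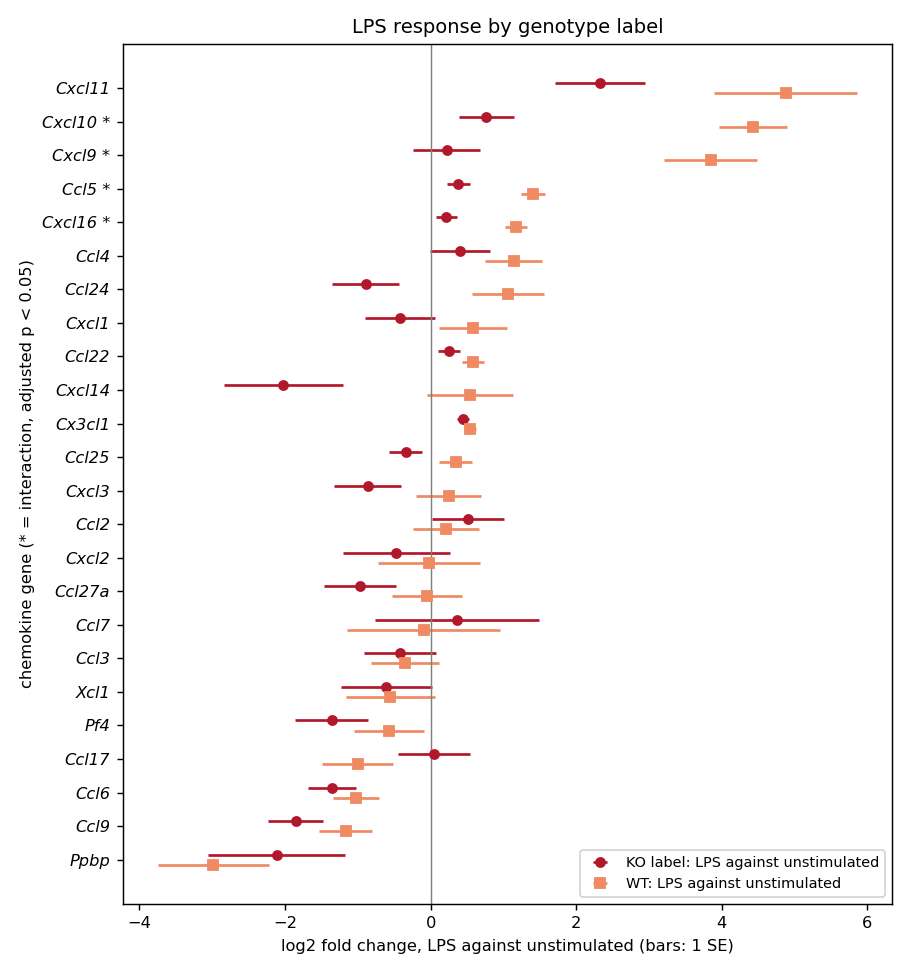
Log2 fold change with LPS against no stimulation (points, with bars of 1 SE) for the 24 tested chemokine genes, in KO-labelled (circles) and WT (squares) BMDCs; an asterisk marks the 4 genes with an adjusted p under 0.05 for the difference between the responses. Cxcl10, Cxcl9, Ccl5 and Cxcl16 lie between 0.22 and 0.77 in KO-labelled and between 1.18 and 4.43 in WT BMDCs.

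Without stimulation, KO-labelled BMDCs had more of these 4 transcripts than WT BMDCs. The comparison called 4 of 24 chemokine genes as higher and 0 as lower, against 12% higher, 5.98% lower and 18% in all among all genes. At an unadjusted p under 0.05 there were 8 of 24, against 34.3% of all genes. It shares the WT unstimulated libraries with the WT LPS comparison and with the difference of responses, so the same low values enter all of them. Cxcl10 had 47.2 and 29.8 CPM in KO-labelled and 2.38 and 6.02 CPM in WT unstimulated libraries (log2 fold change 3.20, SE 0.458, adjusted p = 0.00616). Cxcl9 had 5.15 and 2.17 CPM in KO-labelled and 0.166 and 0.337 CPM in WT libraries (log2 fold change 3.82, SE 0.639, adjusted p = 0.00641), on 95 and 44 counts against 3 and 6. No library of one label reached the range of the other for these genes. Ccl5 had 1291 and 952 CPM in KO-labelled and 582 and 501 CPM in WT libraries (log2 fold change 1.05, SE 0.157, adjusted p = 0.004). Cxcl16 had 1051 and 851 CPM in KO-labelled and 608 and 517 CPM in WT libraries (log2 fold change 0.76, SE 0.147, adjusted p = 0.0108). KO-labelled replicate 1 was above replicate 2 in all 4. Without it, Cxcl10 (adjusted p = 0.0588) and Cxcl16 were not called and 2 calls remained, and without KO-labelled replicate 2 there were 7.

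The other members gave a mixed picture in that comparison. Ppbp had 1.08 and 4.99 CPM in KO-labelled and 9.89 and 27.8 CPM in WT unstimulated libraries (log2 fold change -2.62, SE 0.732, adjusted p = 0.0513), just outside the threshold. Platelet and megakaryocyte markers summed to 41.1 and 71.2 CPM in KO-labelled and 135 and 104 CPM in WT libraries. Among 8 tested, 1 was lower, against 5.98% of all genes. Neutrophil markers summed to 113 and 139 CPM in KO-labelled and 154 and 229.8 CPM in WT libraries, with 4 of 8 lower. The part of platelets and neutrophils in the Ppbp value was not tested. Cxcl11 had 10 and 3 counts in KO-labelled and 0 and 1 in WT libraries (adjusted p = 0.0781), a ratio of 12.1 with a 95% counting interval of 1.81 to 512. Ccl22 had 2019 and 2099.6 CPM in KO-labelled and 1649 and 1576 CPM in WT libraries (log2 fold change 0.35, SE 0.154, adjusted p = 0.143), which did not pass although the groups did not overlap. Groups did not overlap for 14 of 24 chemokine genes and 64% of all genes. The median log2 fold change was 0.00119 for the chemokine genes and -0.011 for all genes.

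Mature DC markers, a list that includes Ccr7, moved with these chemokines. They summed to 26317 and 29466 CPM in KO-labelled LPS, 29140.1 and 31846 CPM in WT LPS, 26364 and 21655 CPM in KO-labelled unstimulated and 14106 and 11765 CPM in WT unstimulated libraries. Of 12 tested genes of that list, 10 rose with LPS in WT BMDCs, against 20% of all genes. In KO-labelled against WT unstimulated libraries 9 were higher, against 12% of all genes. For 4 the difference of responses was negative and past the threshold, against 3.91% of all genes. The part of maturation state in the chemokine values was not tested.

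With LPS present, KO-labelled and WT BMDCs gave 0 called chemokine genes, in a comparison that called 0% of all genes (edgeR). At an unadjusted p under 0.05 there were 3 of 24, against 10.2% of all genes, DESeq2 called 1 (Ccl9) and limma-voom 0. The log2 fold change was below 0 for 18 of 24, with a median of -0.545 against -0.00776 for all genes, and 15 of 24 did not overlap, against 45.9% of all genes. Cxcl14, whose receptor is unsettled, had 3 and 1 counts in KO-labelled and 22 and 8 counts in WT LPS libraries (log2 fold change -2.82, SE 0.774, adjusted p = 0.318). Ccl9 had 13.9 and 21.4 CPM in KO-labelled and 52.5 and 38.7 CPM in WT libraries (log2 fold change -1.37, SE 0.383, adjusted p = 0.368). Ccl4 had 3.98 and 3.88 CPM in KO-labelled and 9.32 and 8.72 CPM in WT libraries (log2 fold change -1.20, SE 0.396, adjusted p = 0.395). None of the 3 overlapped between labels and none passed. The monocyte and macrophage list had a median log2 fold change of -0.709 between labels with LPS, and a median of -1.63 for the difference of responses. Its part in the Ccl9 and Ccl4 values was not tested. The 4 genes that were higher without stimulation had log2 fold changes between labels of 0.02 (Ccl5, SE 0.156), -0.20 (Cxcl16, SE 0.146), -0.47 (Cxcl10, SE 0.376) and 0.20 (Cxcl9, SE 0.462) here. At these SEs a small difference could not be detected.

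Chemokine receptors were described from a list of 18 signalling and 5 atypical receptors. Of 15 tested signalling receptors, 4 rose with LPS in WT BMDCs and 4 fell, in the comparison that called 37.6% of all genes. Ccr7, which guides DCs to lymph nodes, averaged 7389.8 ± 81.3 CPM in WT LPS and 3127 ± 532 CPM in WT unstimulated libraries (log2 fold change 1.24, adjusted p = 0.00111), and Cxcr4, Cxcr5 and Ccr4 rose with it. The monocyte receptor Ccr2 averaged 47.8 ± 22.5 CPM with LPS and 287 ± 141 CPM without (log2 fold change -2.58, adjusted p = 0.00676), and Ccr1, Cxcr3 and Xcr1 fell with it. Ccrl2, an atypical receptor that binds chemerin, rose (log2 fold change 1.47, adjusted p = 0.00304). Cxcr3, the receptor of Cxcl9, Cxcl10 and Cxcl11, averaged 0.332 ± 0.134 CPM with LPS and 3.68 ± 0.519 CPM without, so ligands and receptor transcript ran in opposite directions in those libraries.

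In unstimulated KO-labelled against WT BMDCs, 6 of 15 receptors were called, against 18% of all genes. Those called as higher included Cxcr5, Cxcr4 and Ccr7, and Xcr1 and Cxcr3 were lower. Cxcr4, the receptor of Cxcl12, averaged 214 ± 47.3 CPM in KO-labelled and 91.0 ± 21.5 CPM in WT libraries (log2 fold change 1.24, adjusted p = 0.00791). Cxcr5, the receptor of Cxcl13, averaged 28.7 ± 4.98 CPM in KO-labelled and 3.71 ± 0.00666 CPM in WT libraries (log2 fold change 2.95, adjusted p = 0.000502), and it was the 1 receptor of 15 for which the LPS responses differed (log2 difference -1.88, adjusted p = 0.00978), against 4.48% of all genes. By annotation its 3′ exon overlaps Bcl9l. Its ligand Cxcl13 had 0 counts in every BMDC library. No receptor was called by LPS in KO-labelled BMDCs, between labels with LPS or, of 16 tested, between late and early tumoral DCs (edgeR). At an unadjusted p under 0.05 there were 6 receptors by LPS in KO-labelled BMDCs (21.4% of all genes), 3 between labels with LPS (10.2% of all genes) and 3 between tumor stages (11% of all genes).

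The late against early comparison asked how tumoral DCs changed with tumor stage. It called 0 of 30 chemokine genes and 0.023% of all 13040 genes tested (edgeR). At an unadjusted p under 0.05 there were 6 chemokine genes, against 11% of all genes, DESeq2 called 2 (Pf4 and Ccl12) and limma-voom 0. The log2 fold change was above 0 for 21 and below 0 for 9, with a median of 0.37 against 0.0117 for all genes, and 14 of 30 did not overlap, against 45.2% of all genes.

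Pf4 (chr5:90772435-90773383) had 335 and 470.0 CPM in late and 112 and 118 CPM in early libraries (log2 fold change 1.81, SE 0.249, adjusted p = 0.0565). Ccl12, a CCR2 ligand of mice, had 109.8 and 91.3 CPM in late and 36.8 and 52.2 CPM in early libraries (log2 fold change 1.18, SE 0.253, adjusted p = 0.163). Cxcl12, which stromal cells make, had 1.52 and 0.530 CPM in late and 4.25 and 4.08 CPM in early libraries (log2 fold change -1.998, SE 0.643, adjusted p = 0.334). In all 3 the stages did not overlap, and none passed. Monocyte and macrophage markers summed to 14783 and 17464 CPM in late and 13317 and 7966 CPM in early libraries, and fibroblast markers to 262 and 87.8 CPM in late and 920.4 and 422 CPM in early libraries. Platelet markers summed to 44.2 and 32.5 CPM in late and 32.6 and 57.8 CPM in early libraries. The part of monocytes, macrophages and fibroblasts in these values was not tested.

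Ppbp, the neighbour of Pf4, had 69.1 and 91.3 CPM in late and 1.54 and 12.3 CPM in early libraries (log2 fold change 3.55, SE 1.02, adjusted p = 0.384). The stages did not overlap, and the early libraries lay far apart. The early libraries also lay far apart for the neutrophil attractants Cxcl1, Cxcl2 and Cxcl3. Cxcl3 had 143 and 152 CPM in late and 2.57 and 106 CPM in early libraries (log2 fold change 1.45, SE 1.64, adjusted p = 0.786). Cxcl2 had 1604 and 1296 CPM in late and 495 and 1737 CPM in early libraries (log2 fold change 0.38, SE 0.574, adjusted p = 0.84). Cxcl1 had 85.5 and 127 CPM in late and 37.4 and 122 CPM in early libraries (log2 fold change 0.42, SE 0.570, adjusted p = 0.816). In all 4 genes early replicate 1 was the lowest of the 4 libraries. Early replicate 2 was within the late range for Cxcl1, above it for Cxcl2 and below it for Cxcl3, the genes whose shared upstream letters are printed above. Cxcl2 shares 5.84% of its 50-base stretches with Cxcl3, which are 3.51% of those of Cxcl3, so a small part of their reads may be exchanged. Neutrophil markers summed to 442 and 164 CPM in late and 137 and 189 CPM in early libraries, and the part of neutrophils in these values was not tested.

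**Figure D4:**
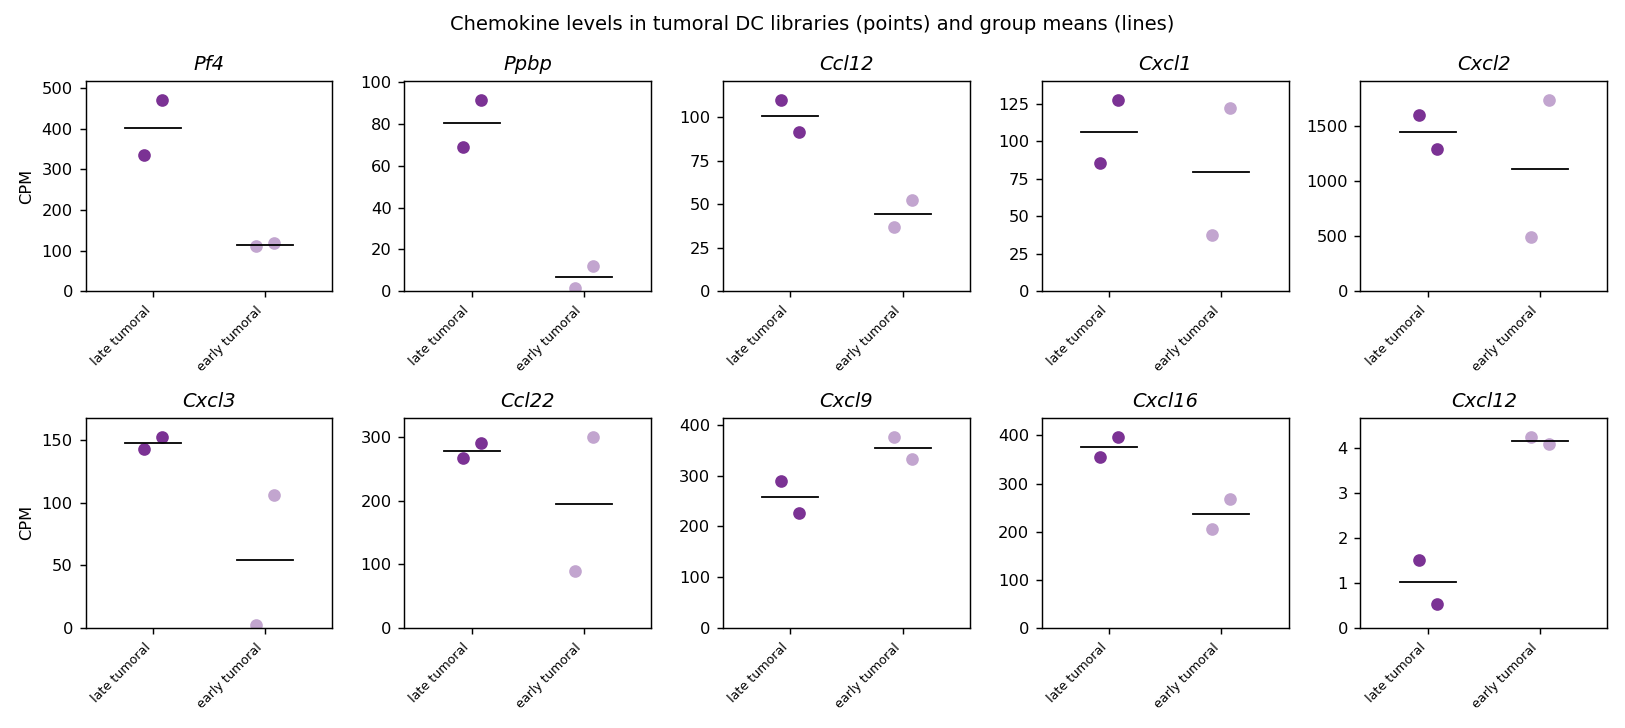
CPM of 10 chemokine genes in the 4 tumoral DC libraries (points) with the mean of each group of 2 (lines), late left of early; the vertical axes start at 0 and differ between panels. Pf4, Ppbp, Ccl12 and Cxcl16 are higher in both late libraries, and in Cxcl1, Cxcl2, Cxcl3 and Ccl22 the early libraries lie far apart.

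Early replicate 1 was the lowest library for 19 of the 30 tested chemokine genes, and for 23.4% of all genes tested. Its mature DC markers summed to 928 CPM, against 2617 CPM in early replicate 2 and 1989.6 and 1714 CPM in late libraries. Ccl22, which mature DCs make, had 266 and 291 CPM in late and 88.8 and 300.1 CPM in early libraries (log2 fold change 0.52, SE 0.551, adjusted p = 0.756). The monocyte attractants Ccl2 and Ccl7 were spread in the same way, with 551 and 574 CPM (late) and 268 and 472 CPM (early) for Ccl2 and 432 and 435 CPM (late) and 214 and 388 CPM (early) for Ccl7. Without early replicate 1, 6 chemokine genes were called (Xcl1, Ppbp, Pf4, Cxcl10, Ccl8 and Ccl12). Without early replicate 2, 10 were called (Ppbp, Pf4, Cxcl3, Cxcl2, Cxcl1, Ccl7, Ccl24, Ccl22, Ccl2 and Ccl12). Pf4, Ppbp and Ccl12 stood in both of these, with a single early library assumed to vary like the late ones, and 0 were called when either late library was left out.

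CXCR3 ligands lay on the other side of 0 without passing. Cxcl9 had 289 and 227 CPM in late and 376 and 333 CPM in early libraries (log2 fold change -0.46, SE 0.231, adjusted p = 0.511). Cxcl10 had 258 and 178 CPM in late and 194 and 383 CPM in early libraries (log2 fold change -0.41, SE 0.360, adjusted p = 0.704). Ccl5 had 164 and 61.7 CPM in late and 159 and 186 CPM in early libraries (log2 fold change -0.61, SE 0.442, adjusted p = 0.646). The stages did not overlap for Cxcl9 and overlapped for Cxcl10 and Ccl5. NK and cytotoxic markers summed to 227 and 94.0 CPM in late and 1046 and 714 CPM in early libraries, with 0 of 8 genes called (edgeR). Of 11 tested T cell genes, Lck, a T cell kinase, was lower in late libraries, against 0.023% of all genes. The part of such cells in the Cxcl9, Cxcl10, Ccl5 and Xcl1 values was not tested. Cxcl16 had 356 and 397 CPM in late and 205 and 269 CPM in early libraries (log2 fold change 0.67, SE 0.235, adjusted p = 0.375), with no overlap.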

How the data were processed

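Per the submitters' processing notes, reads were trimmed with fastp 0.12.4, aligned to mm10 with HISAT2 2.2.1 and counted with featureCounts 2.0.1. The sources used here do not give the annotation, the strand setting or the treatment of multimapping reads. Libraries came from total RNA with a TruSeq kit, per the labels, whose extraction text speaks of retinas, another tissue. The authors deposited whole-number counts per gene symbol in 2 tables, one for the 4 tumoral and one for the 8 BMDC libraries, each with 32190 symbols. Sums of reads limit the precision of low genes, and counting intervals and floors cover counting error only.

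From these counts, genes passing the default filter of edgeR 4.0.16 (minimum count 10) were tested in R 4.3.3 with TMM scaling, a robust quasi-likelihood fit and Benjamini-Hochberg adjustment over all genes tested (13040 tumoral, 13072 BMDC), at a threshold of 0.05. The 4 BMDC groups shared one fit. The difference between LPS responses was tested as a contrast of that fit. CPM used TMM-scaled library sizes within each table, and CPM per kb used the summed exon lengths of GENCODE M21 (GRCm38). Coordinates and upstream sequences came from RefSeq GRCm38.p6. Protein sequences were not used here, and some items are not reported here. The script was tested on simulated counts.

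Members and lists were chosen with earlier results of these data known. Library values were given for genes called in a comparison and, where fewer than 3 were called, for the 3 with the smallest p. Named after their values were seen were Ppbp, Cxcl1, Cxcl2, Cxcl3, Cxcl9, Cxcl10, Cxcl16, Ccl2, Ccl5, Ccl7 and Ccl22 between tumor stages, Ppbp, Cxcl11 and Ccl22 between unstimulated labels, Xcl1, Ccl17, Ccl24 and Ccl25 for their levels, and the 5 upstream sequences. The 4 genes whose LPS responses differed were also given in the LPS comparison of KO-labelled libraries and between labels with LPS. Alternatives were RLE and upper-quartile scaling, no count filter, DESeq2 1.42.0, limma-voom 3.58.1, a replicate block, fits on the 4 libraries compared, and leaving out each library.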

Additional observations from a re-analysis of the deposited data

Results flagged for a closer look

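For 4 chemokine genes the response to LPS differed between KO-labelled and WT BMDCs by a test of the difference itself (edgeR, adjusted p under 0.05). Each is the log2 response in KO-labelled minus that in WT BMDCs. Cxcl10 gave -3.66, Cxcl9 -3.62, Ccl5 -1.03 and Cxcl16 -0.96. All 4 had their lowest levels in the WT unstimulated libraries, which enter this difference and the comparisons of label and of LPS alike.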

How the results depend on the processing

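Of the alternatives for single chemokine genes, 602 kept direction and side of the threshold, 36 newly passed it, 52 no longer passed it and 9 reversed. Of the counts of called chemokine genes, 65 stayed within 1.5 times and 24 moved. Late against early, the 0 calls became 1 with upper-quartile scaling, 2 without the count filter, 2 with DESeq2 and 1 with a replicate block, and ranged from 0 to 10 on leaving out a library. LPS in WT ranged from 6 to 11 calls on leaving out a library. LPS in KO-labelled BMDCs went to 2 calls without the count filter, 3 with DESeq2 and 1 with a replicate block, with 0 to 2 on leaving out a library. KO-labelled against WT gave 2 to 7 calls without stimulation, on leaving out a library, and with LPS 1 by DESeq2 and 0 on leaving out any library. For the difference of responses, the 4 calls became 2 with a replicate block and 0 to 4 on leaving out a library.

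Reversals came from leaving out a library. Without early replicate 1 the late against early log2 fold change was -0.25 for Cxcl2, -0.19 for Cxcl1 and -0.10 for Ccl22, and without early replicate 2 it was 0.17 for Cxcl10. Over all 4 libraries left out in turn, the highest value was 1.56 for Cxcl2, 1.51 for Cxcl1 and 1.66 for Ccl22, and the lowest for Cxcl10 was -0.81. For LPS in KO-labelled BMDCs, Cxcl9 was at -0.27 without unstimulated replicate 2 and -0.21 without LPS replicate 2, up to 0.97 without unstimulated replicate 1. Between labels with LPS, Cxcl9 was at -0.066 without WT LPS replicate 1 and -0.24 without KO-labelled LPS replicate 2, and Ccl5 at -0.0092 without WT LPS replicate 1. There the highest value on leaving out a library was 0.53 for Cxcl9 and 0.0529 for Ccl5. None of these 9 was called in the fit on all libraries. The causes of these changes were not tested.

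Same-numbered libraries did not all deviate together, so the number served only as a trial block. The correlations of their deviations from group means were 0.123 to 0.275 among the WT unstimulated, KO-labelled unstimulated and WT LPS groups, -0.2 to -0.0762 between these and the KO-labelled LPS group, and -0.0379 between tumor stages. Crossing the numbers of the KO-labelled LPS libraries, chosen after seeing the data, gave 10 chemokine calls (5582 of all genes) for LPS in WT, 1 (984) for LPS in KO-labelled BMDCs, 5 (3438) between labels unstimulated, 0 (14) between labels with LPS and 4 (1598) for the difference of responses.

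Counts over all genes moved too. Late against early called 3 genes by the test of the report, 0 with RLE scaling, 45 with upper-quartile scaling, 689 without the count filter, 311 with DESeq2, 0 with limma-voom and 173 with a replicate block. LPS in KO-labelled BMDCs called 0, and 22, 21, 587, 793, 0 and 321 in that order. KO-labelled against WT with LPS called 0, with 56 without the filter, 150 by DESeq2 and 2 with a block. The difference of responses called 585, with 948 without the filter and 1082 by DESeq2. KO-labelled against WT without stimulation called 2357, with 993 on the 4 libraries alone. On leaving out a library, calls over all genes ranged from 0 to 1063 late against early, 2676 to 4831 for LPS in WT (4910 with all libraries), 0 to 615 for LPS in KO-labelled BMDCs, 593 to 2717 between labels unstimulated, 0 to 65 between labels with LPS and 58 to 1076 for the difference of responses. No scaling moved the median log2 fold change of all genes by more than 0.1. With 2 libraries a group, a left-out library leaves a group of 1, assumed to vary like the others. Depth limits Cxcl11 and Cxcl14 in BMDCs, with at most 34 and 22 counts in a library.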
